A study of Homo sapiens with 12 samples.

Results

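The imprinted genes described here are 34 gene symbols taken from a given list of loci outside the IGF2-H19 region, of 54261 genes in the total RNA table. All 34 had a row, 8 had 0 counts in every library, and 19 passed the filter on low counts and were tested. An imprinted gene is read mainly from the copy inherited from 1 parent, because DNA methylation set in the egg or the sperm at a control region silences the other copy. Such genes lie in clusters that share a control region, often with a long non-coding RNA that is read from the opposite parental copy, and many act on growth before birth. Tumour cell lines are known to carry imprinted loci that are silent on both copies or active on both.

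The cells were HCT116oxR, a line selected from HCT116 human colorectal carcinoma cells by growth in oxaliplatin, a platinum drug, raised in steps from 0.1 µmol/L to 5 µmol/L, the last dose being held for 1 year, and the parental HCT116 line itself. Each line gave 3 total RNA and 3 small RNA libraries from cultures grown and harvested separately. There is 1 resistant line, so the tests compare these cultures and not independently selected lines. Total RNA libraries held 11950069 to 13558077 counts and small RNA libraries 16089595 to 18147051. Of 12 colon epithelial markers, 7 were tested, with KRT8, KRT18, KRT19 and EPCAM among them. Of the 7, 4 were higher and 1 lower in HCT116oxR by the test described below (71.4%, against 44.1% of all genes tested). CEACAM5 was at 0, and CDX1 and VIL1 had at most 2 counts in a library. The 22 markers of other cell types summed to 687 to 846 counts in HCT116oxR libraries and 766 to 920 in parental libraries, mostly from COL1A1, with PTPRC, CD3E, GFAP and PAGE4 at 0 in all of them.

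The imprinted locus 14q32 also encodes a large group of miRNAs, and 3 further loci of the list encode or adjoin some. A miRNA recognises its targets mainly through its seed, bases 2 to 8, given here in capitals. The first 10 sequences below are miRNAs from miR-379 onward at 14q32 that were lower in HCT116oxR, and the next 2 lie at 14q32 before miR-379 and did not pass. The last 4 belong to the other loci and were higher in HCT116oxR. The mature sequences are from RefSeq (GRCh38.p14).
miR-379-5p: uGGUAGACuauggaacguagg
miR-411-5p: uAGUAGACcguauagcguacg
miR-494-3p: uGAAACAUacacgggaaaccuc
miR-543: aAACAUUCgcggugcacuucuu
miR-654-3p: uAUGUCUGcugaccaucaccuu
miR-381-3p: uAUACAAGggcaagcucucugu
miR-539-3p: aUCAUACAaggacaauuucuuu
miR-134-5p: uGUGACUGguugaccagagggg
miR-485-3p: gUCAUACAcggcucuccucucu
miR-409-3p: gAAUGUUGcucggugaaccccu
miR-127-3p: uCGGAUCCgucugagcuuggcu
miR-370-3p: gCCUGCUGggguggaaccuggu
miR-335-3p: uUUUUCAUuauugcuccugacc
miR-335-5p: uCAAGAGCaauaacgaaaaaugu
miR-653-5p: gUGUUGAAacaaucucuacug
miR-296-3p: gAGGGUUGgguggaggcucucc
Among the 10 from 14q32 that were lower, miR-539-3p and miR-485-3p share a seed, and the seeds of miR-379-5p and miR-411-5p differ from each other. The seeds of the other 6 were each held by 1 tested miRNA of these loci. Those of miR-653-5p, miR-296-3p, miR-335-5p and miR-335-3p were also held by 1 each.

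Of the 19 tested imprinted genes, 6 were higher in HCT116oxR, 1 was lower and 12 did not pass (edgeR quasi-likelihood test, Benjamini-Hochberg adjusted over all genes tested, threshold 0.05). Over all 17511 genes tested, 44.1% were called, 22.3% higher and 21.8% lower, so the 36.8% called here is no higher than the background. With the further demand of at least 2-fold, 1 imprinted gene was called, against 8.71% of all genes, 4.88% higher and 3.83% lower. The median log2 fold change, HCT116oxR over parental, was 0.09 over the 19 tested imprinted genes and 0.00 over all genes. In these bulk cultures, a change in RNA per cell and a change in the share of cells that hold the RNA cannot be told apart.

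**Figure D1:**
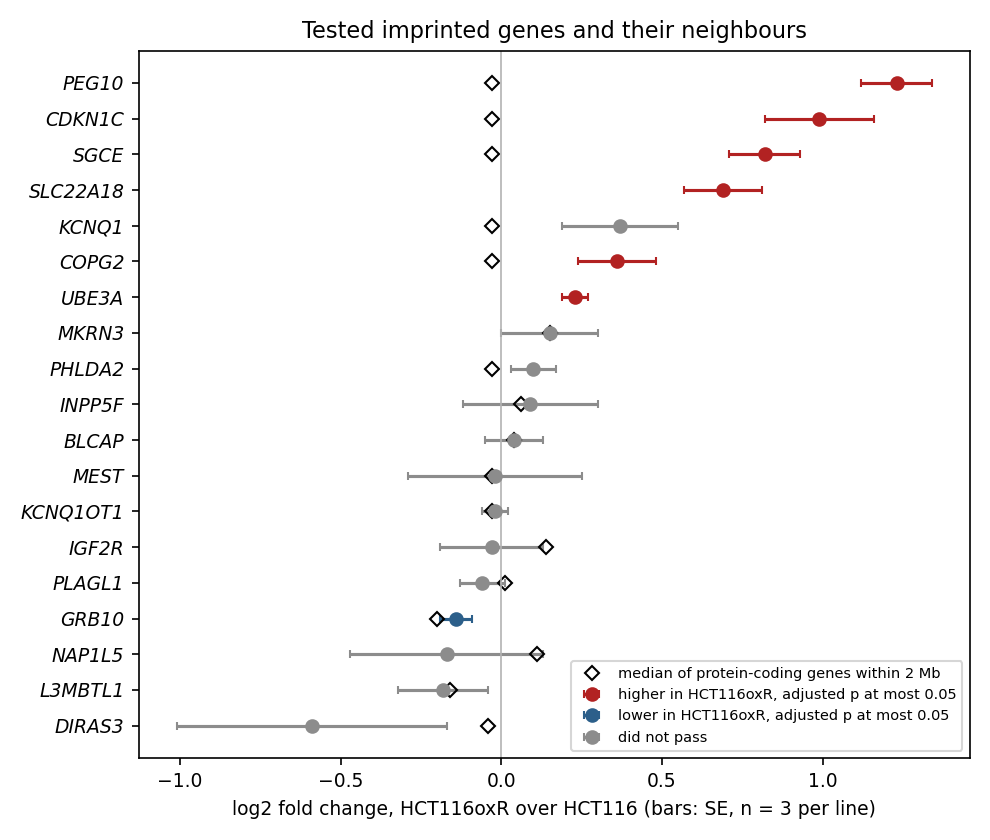
Log2 fold change, HCT116oxR over HCT116, of the 19 imprinted genes that were tested, with the standard error (n = 3 libraries per line); open diamonds give the median of tested, non-imprinted protein-coding genes within 2 Mb, where the annotation table places the gene. PEG10, at 1.23, stands highest, and its neighbours have a median of -0.03.

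The largest difference was at 7q21, where PEG10 and SGCE lie head to head and are read from the paternal copy. PEG10 is a gene derived from a retrotransposon, and SGCE encodes epsilon-sarcoglycan, a membrane protein of the dystrophin complex. PEG10 (chromosome 7, 94656325 to 94669695, GRCh38.p14) had 486, 425 and 428 counts in the HCT116oxR libraries, against 194, 174 and 176 in the parental libraries. Every HCT116oxR library lay above every parental one. In TMM-scaled CPM, which are counts scaled for library depth and composition, PEG10 averaged 34.1 ± 2.16 in HCT116oxR and 14.5 ± 0.226 in parental cells (SD, n = 3 each), a 2.35-fold rise (log2 fold change 1.23 ± 0.11, SE, adjusted p = 2.78e-20).

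SGCE (chromosome 7, 94584980 to 94656133) had 380, 365 and 360 counts in HCT116oxR, against 249, 161 and 189 in parental libraries, again with no overlap between the lines. It rose 1.77-fold (0.82 ± 0.11, SE, adjusted p = 1.48e-10). The annotated span of SGCE overlaps that of its neighbour CASD1, and the use of strand in counting is not given in the sources used here. Within 2 Mb of PEG10, 2 of 11 tested non-imprinted protein-coding genes were higher and 3 lower. Over all genes tested, 22.3% were higher and 21.8% lower. The median log2 fold change of the 11 was -0.03. The difference of PEG10 and SGCE was thus not shared by most genes around them.

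miR-653, encoded in an intron of CALCR at 7q21 on the far side of SGCE, was counted in the small RNA libraries. Its 5p arm lies at 93482823 to 93482843 on chromosome 7, outside SGCE and PEG10, so it is not a direct reading of either. miR-653-5p had 101, 115 and 68 counts in HCT116oxR and 32, 27 and 42 in parental libraries, with no overlap. It rose 2.48-fold (1.31 ± 0.26, SE, adjusted p = 0.00145). The other arm, miR-653-3p, had 31, 23 and 16 counts in HCT116oxR and 2, 24 and 5 in parental libraries, which overlap, and did not pass (0.97 ± 0.66, adjusted p = 0.256). miR-489, from the same intron region, was too low to test, with 25 counts in HCT116oxR and 3 in parental cells for miR-489-3p and 5 and 16 for miR-489-5p. The calcitonin receptor gene CALCR itself had 11, 1 and 0 counts in HCT116oxR and 2, 3 and 0 in parental libraries, too few to test. DLX5, a homeobox gene further along 7q21, had 0 counts in every library.

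**Figure D2:**
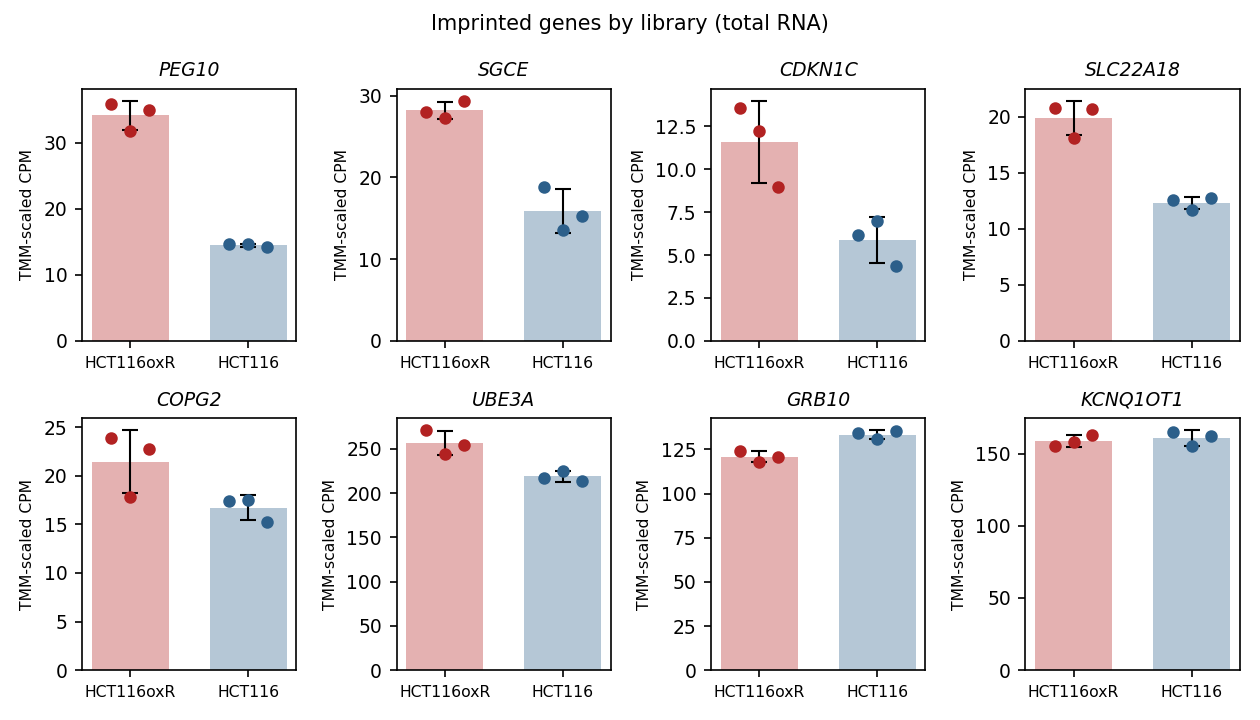
TMM-scaled CPM of 8 imprinted genes in each total RNA library (points), with the mean (bars) and SD (n = 3 per line), HCT116oxR left of HCT116. Each axis starts at 0. The imprinted genes called higher or lower were drawn, with KCNQ1OT1 added. That the lines do not overlap in any but KCNQ1OT1 largely follows from this choice. KCNQ1OT1 averaged 159 and 161 CPM.

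At 11p15 the genes of the KCNQ1 domain are read from the maternal copy, and the long non-coding RNA KCNQ1OT1, read from within KCNQ1 on the paternal copy, silences them in cis. CDKN1C encodes the cell cycle inhibitor p57, a brake on cyclin-dependent kinases. It had 184, 164 and 110 counts in HCT116oxR and 82, 83 and 54 in parental libraries, so that the lowest HCT116oxR library stood above the highest parental one. CDKN1C averaged 11.6 ± 2.37 CPM in HCT116oxR and 5.85 ± 1.34 CPM in parental cells (SD, n = 3 each), a 1.99-fold rise (0.99 ± 0.17, SE, adjusted p = 4.71e-07).

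SLC22A18, a member of the organic cation transporter family, had 282, 243 and 254 counts in HCT116oxR, against 166, 139 and 157 in parental libraries. It rose 1.61-fold with no overlap (0.69 ± 0.12, SE, adjusted p = 1.18e-06). PHLDA2, which restrains growth of the placenta, had 634, 740 and 616 counts in HCT116oxR and 554, 580 and 639 in parental libraries. The lines overlapped and it did not pass (0.10 ± 0.07, adjusted p = 0.3).

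KCNQ1, a potassium channel gene, had 126, 84 and 113 counts in HCT116oxR and 96, 68 and 75 in parental libraries, which overlap (0.37 ± 0.18, adjusted p = 0.0877). KCNQ1OT1 had 2106, 2118 and 2001 counts in HCT116oxR and 2189, 1843 and 2008 in parental libraries. It stood at -0.02 ± 0.04 (SE, adjusted p = 0.752). Whether its level bears on CDKN1C or SLC22A18 was not tested. The span of KCNQ1OT1 lies inside that of KCNQ1, so with strand use not given their reads cannot be told apart. Of 20 tested non-imprinted neighbours within 2 Mb of CDKN1C, 5 were higher and 8 lower, against 22.3% and 21.8% of all genes. Their median was -0.03.

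At 15q11 the members are the genes of the Prader-Willi and Angelman region. UBE3A, a ubiquitin ligase imprinted mainly in neurons, had 3673, 3266 and 3118 counts in HCT116oxR and 2876, 2679 and 2644 in parental libraries. It rose 1.17-fold (0.23 ± 0.04, SE, adjusted p = 2.55e-07), a small shift without overlap in CPM. The annotated span of UBE3A overlaps that of SNHG14, which had no row of its own. With strand use not given, reads of SNHG14 cannot be told apart from those of UBE3A. MKRN3, a zinc finger ubiquitin ligase that restrains the onset of puberty, had 161, 159 and 137 counts in HCT116oxR and 125, 116 and 151 in parental libraries, and did not pass (0.15 ± 0.15, adjusted p = 0.423).

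MKRN3 was the one paternally read gene of 15q11 with counts to test. NDN and MAGEL2, which encode related MAGE family proteins, and SNRPN, which encodes a splicing protein, had 0 counts in all 6 libraries. SNURF had 1 count in 1 library of each line. The 85 rows of the small nucleolar RNAs of 15q11, such as those of the SNORD116 and SNORD115 groups, held 0 counts in both lines. How reads that match several of these rows were counted is not known, so these 0 values were not read as absence. The annotated span of SNURF lies inside that of SNRPN, and how reads that match both were counted is not known.

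The 250 bases before the start of SNURF, which is also 1 of the 4 SNRPN starts in the table, (RefSeq, GRCh38.p14, chr15:24954737-24954986, plus strand) belong to the control region of 15q11 and are shown because transcripts of both genes are annotated from there. Capitals mark TGCCGC and its reverse complement GCGGCA, the letters that the imprint-protecting zinc finger protein ZFP57 recognises when they are methylated.
SNURF and SNRPN: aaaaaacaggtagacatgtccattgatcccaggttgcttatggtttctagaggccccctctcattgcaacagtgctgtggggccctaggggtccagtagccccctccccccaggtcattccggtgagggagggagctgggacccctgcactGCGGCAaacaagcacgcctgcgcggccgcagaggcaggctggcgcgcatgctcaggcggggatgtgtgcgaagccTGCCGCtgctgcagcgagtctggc
The run holds 1 match on each strand. Of 300-base RefSeq windows around gene starts, 21 of 48 windows of imprinted genes on the list held a match on either strand (43.8%), against 5878 of 35116 windows of all genes (16.7%). The 48 windows belong to 20 of the 34 genes, several windows of a gene overlap, and they held a median of 18.5 CG pairs against 14 for all windows. Such a match is a description of the letters and not of binding.

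At 7p12, GRB10 was the only tested imprinted gene called lower. It encodes an adaptor that dampens signalling from the insulin and IGF1 receptors. GRB10 had 1682, 1580 and 1484 counts in HCT116oxR and 1778, 1554 and 1673 in parental libraries. Scaled for depth, it averaged 121 ± 3.09 CPM in HCT116oxR and 133 ± 2.45 CPM in parental cells (SD, n = 3 each). The difference was small, 1.10-fold lower (-0.14 ± 0.05, SE, adjusted p = 0.0101), and the lines did not overlap in CPM.

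At 7q32, COPG2, which encodes a coat subunit of Golgi transport vesicles, had 323, 238 and 279 counts in HCT116oxR and 230, 208 and 188 in parental libraries. It rose 1.28-fold (0.36 ± 0.12, SE, adjusted p = 0.00767). The call rested on single libraries, since without HCT116oxR replicate 1 the log2 fold change was 0.28 (adjusted p = 0.0886) and without parental replicate 3 it was 0.30 (adjusted p = 0.0526). MEST, a paternally read gene of the hydrolase fold family, had 32, 50 and 42 counts in HCT116oxR and 51, 41 and 29 in parental libraries (-0.02 ± 0.27, adjusted p = 0.954). The lines overlapped. The end of MEST overlaps that of COPG2, and its start overlaps MESTIT1, a non-coding transcript, which had 8, 5 and 10 counts in HCT116oxR and 3, 7 and 7 in parental libraries and was not tested.

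miR-335 is encoded in an intron of MEST and was counted in the small RNA libraries. miR-335-3p had 5565, 5757 and 5957 counts in HCT116oxR and 4424, 4390 and 4315 in parental libraries, a 1.16-fold rise (0.22 ± 0.06, SE, adjusted p = 0.0139). miR-335-5p had 787, 732 and 838 counts in HCT116oxR and 600, 569 and 453 in parental libraries, a 1.28-fold rise (0.36 ± 0.12, adjusted p = 0.0244). Both arms were higher in every HCT116oxR library, and both calls rested on single libraries. For miR-335-3p, the adjusted p was 0.0609 without parental replicate 1 and 0.0710 without parental replicate 3. For miR-335-5p, it was 0.0547 without HCT116oxR replicate 3 and 0.113 without parental replicate 3. The SE of MEST itself, 0.27, is larger than the log2 fold change of miR-335-3p.

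At 20q13 GNAS, which encodes the stimulatory G protein alpha subunit and is described as active in nearly all tissues, had 0, 2 and 2 counts in HCT116oxR and 0 in each parental library. Its antisense partner GNAS-AS1 had 4, 7 and 2 counts in HCT116oxR and 1, 3 and 2 in parental libraries. All of these are near the floor of 3 counts per library, so no fold is given. Because such a widely active gene is listed near 0, a 0 in this table was not read as absence of the transcript. miR-296-3p, encoded beside GNAS-AS1, had 158, 108 and 135 counts in HCT116oxR and 79, 76 and 74 in parental libraries. It rose 1.54-fold without overlap (0.63 ± 0.18, SE, adjusted p = 0.0124). The other arm, miR-296-5p, had 29, 32 and 22 counts in HCT116oxR and 20, 21 and 8 in parental libraries, and did not pass (0.58 ± 0.42, adjusted p = 0.286). miR-298, also at this locus, had 0, 2 and 0 counts in HCT116oxR and 2, 2 and 10 in parental libraries and was not tested.

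The remaining tested imprinted genes, each alone at its locus on the list or paired with a gene near 0, did not pass. PLAGL1, a zinc finger transcription factor of 6q24, had 754, 715 and 634 counts in HCT116oxR and 765, 618 and 706 in parental libraries (-0.06 ± 0.07, adjusted p = 0.553). IGF2R, the receptor that clears IGF2, had 123, 110 and 116 counts in HCT116oxR and 114, 123 and 104 in parental libraries (-0.03 ± 0.16, adjusted p = 0.892). In both genes the lines overlapped.

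L3MBTL1, a reader of methylated histones, stood at -0.18 ± 0.14 (adjusted p = 0.335), and BLCAP, a gene of 20q11 that hosts NNAT, at 0.04 ± 0.09 (adjusted p = 0.745). NNAT, which encodes neuronatin, had 2, 0 and 0 counts in HCT116oxR and 0, 1 and 0 in parental libraries. DIRAS3, a Ras-related gene that restrains growth, had 24, 7 and 15 counts in HCT116oxR and 17, 17 and 32 in parental libraries, with wide overlap (-0.59 ± 0.42, adjusted p = 0.266). INPP5F, an inositol phosphatase gene, stood at 0.09 ± 0.21 (adjusted p = 0.772) and NAP1L5, a nucleosome assembly gene inside HERC3, at -0.17 ± 0.30 (adjusted p = 0.690). PEG3 and ZIM2, overlapping zinc finger genes of 19q13, had 0 counts in every library. A count of 0 allows up to 3 counts, which is 0.221 to 0.252 CPM in a library (counting error only). That bound does not cover reads that may have been set aside where annotated genes overlap, as PEG3 and ZIM2 do.

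At 14q32 the mRNAs and long RNAs were near 0 in both lines while the miRNAs were not. MEG3, a maternally read long non-coding RNA, had 1, 1 and 0 counts in HCT116oxR and 0, 1 and 0 in parental libraries. DLK1, the paternally read gene of a membrane protein related to Notch ligands, had 4, 2 and 5 counts in HCT116oxR and 3, 4 and 6 in parental libraries. MEG8, a long RNA that carries small nucleolar RNAs, and RTL1, a retrotransposon-derived gene, had 0 counts throughout. The 41 small nucleolar RNA rows of 14q32 held 0 counts in HCT116oxR and 6 in parental cells.

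The small RNA table held 93 mature miRNAs from the 14q32 list. Those after the start of MEG3 are described as made from the maternal copy by long precursor transcripts. miR-2392 lies before MEG3, and its parental origin is not known here. Of the 93, 44 passed the filter and 34 were called lower in HCT116oxR, 30 of them at least 2-fold, with 0 called higher. Over all 975 miRNAs tested, 44.7% were called, 21.2% lower, 10.3% at least 2-fold lower, 23.5% higher and 6.67% at least 2-fold higher; 16.9% differed at least 2-fold either way. miRNAs of 1 cluster share a precursor and are not independent of each other. In addition, 14 of the 44 passed the filter through the parental libraries only, so they are not counted as support. Of the 26 that met the minimum in every HCT116oxR library, 23 were called lower.

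The difference was not spread evenly along the locus. The following grouping by position, with miR-379 as the boundary, was chosen after the values were seen and carries no test. From miR-379 onward there are 73 miRNAs on the list, whose summed counts were 1793, 1515 and 1623 in HCT116oxR and 3704, 3371 and 3587 in parental libraries. Scaled for depth the sum was 91.3 ± 4.85 CPM in HCT116oxR and 223 ± 6.76 CPM in parental cells (SD, n = 3 each), 2.45-fold lower. Mean CPM was lower in HCT116oxR for 65 of the 70 with any count and higher for 5. Only 37 of the 73 passed the filter on low counts. The same share over all miRNAs was not counted.

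Between the start of MEG3 and miR-379 there are 18 listed miRNAs, whose summed counts were 383, 307 and 335 in HCT116oxR and 326, 356 and 323 in parental libraries. That sum was 19 ± 1.49 CPM in HCT116oxR and 21.1 ± 1.53 CPM in parental cells (SD, n = 3 each), and the lines overlapped. Mean CPM was lower in HCT116oxR for 12 of the 18 and higher for 6. Of the 5 tested there, 0 passed. The sum from miR-379 onward over the sum before it was 4.68, 4.93 and 4.84 in HCT116oxR libraries and 11.4, 9.47 and 11.1 in parental libraries, which do not overlap. miR-2392, which lies before MEG3, had 378, 300 and 280 counts in HCT116oxR and 695, 429 and 680 in parental libraries and was called lower (-1.09 ± 0.17, adjusted p = 1.86e-04).

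**Figure D3:**
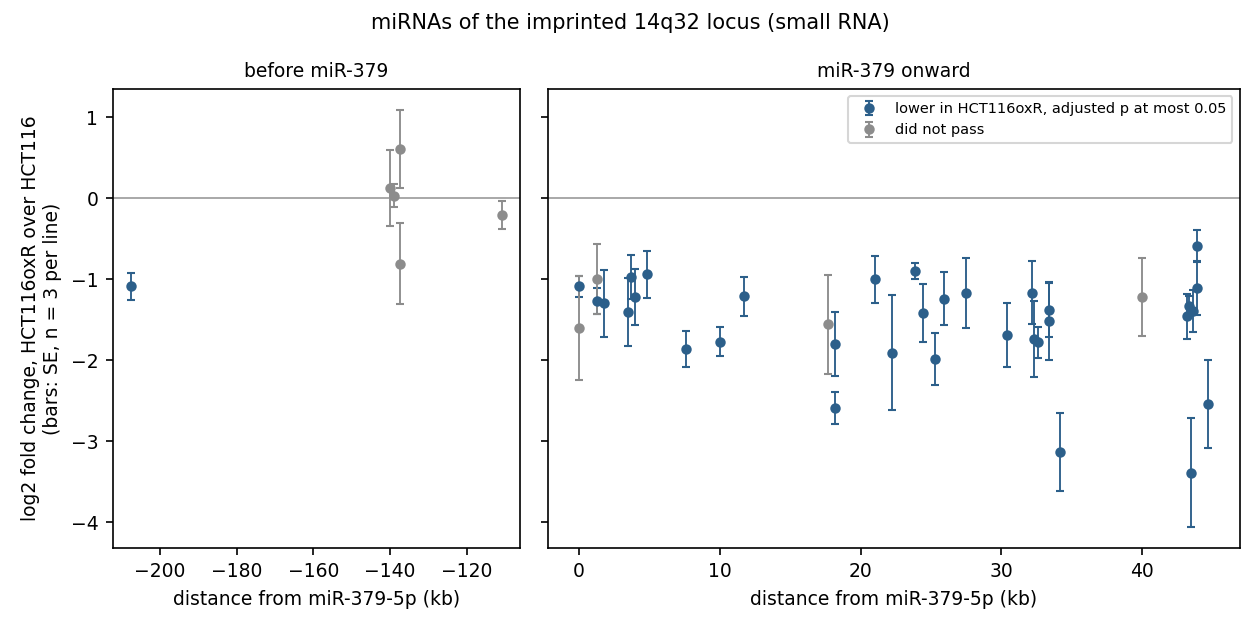
Log2 fold change, HCT116oxR over HCT116, with SE (n = 3 per line), of the 43 tested 14q32 miRNAs that have a position, by distance from miR-379-5p in kb; the horizontal scales of the panels differ. From miR-379 onward 37 are drawn, of which 22 met the count minimum in every HCT116oxR library and were called lower, and 13 passed through the parental libraries only; the 5 between MEG3 and miR-379 lie on both sides of 0.

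The smallest adjusted p-values from miR-379 onward were those of miR-654-3p, miR-409-3p, miR-543 and miR-381-3p. miR-654-3p had 42, 40 and 26 counts in HCT116oxR, against 203, 165 and 209 in parental libraries, and fell 6.03-fold (-2.59 ± 0.20, SE, adjusted p = 5.65e-07). miR-409-3p had 186, 153 and 173 counts in HCT116oxR, against 360, 403 and 377 in parental libraries (-1.33 ± 0.12, adjusted p = 2.61e-06). For both, every HCT116oxR library lay below every parental one.

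miR-543 had 54, 68 and 73 counts in HCT116oxR and 191, 177 and 222 in parental libraries (-1.77 ± 0.18, adjusted p = 6.59e-06). miR-381-3p had 392, 357 and 384 counts in HCT116oxR and 657, 574 and 645 in parental libraries (-0.90 ± 0.10, adjusted p = 1.12e-05). The lines did not overlap in either. Of further miRNAs whose sequences are given above, chosen after their values were seen, miR-494-3p fell 3.63-fold, miR-134-5p 3.45-fold, miR-411-5p 2.41-fold and miR-379-5p 2.13-fold. The pair with a shared seed, miR-539-3p and miR-485-3p, fell 3.97-fold and 2.60-fold.

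Before miR-379, miR-127-3p and miR-370-3p had the most counts after miR-2392. miR-127-3p, which lies antisense to RTL1, had 176, 151 and 153 counts in HCT116oxR and 130, 145 and 141 in parental libraries (0.03 ± 0.14, adjusted p = 0.906). miR-370-3p had 130, 100 and 115 counts in HCT116oxR and 123, 126 and 102 in parental libraries (-0.21 ± 0.17, adjusted p = 0.340). In both the lines overlapped in CPM.

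**Figure D4:**
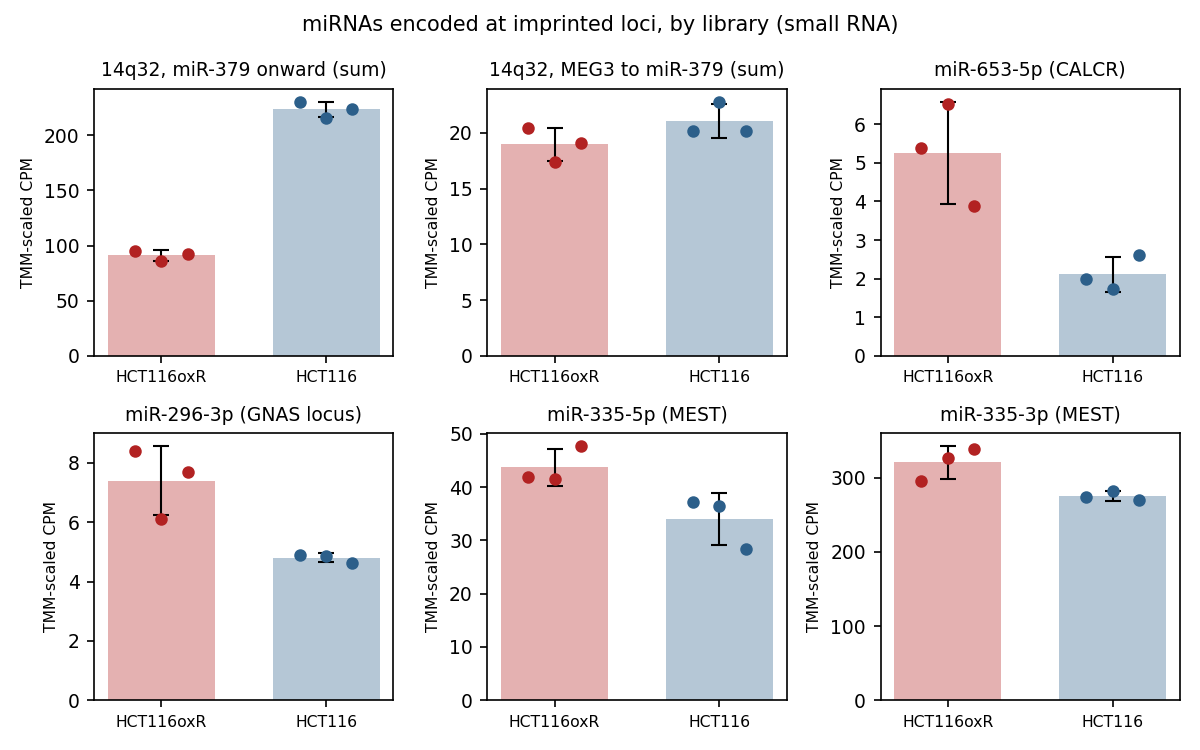
TMM-scaled CPM in each small RNA library (points), with the mean (bars) and SD (n = 3 per line), HCT116oxR left of HCT116, for the summed 14q32 miRNAs on either side of miR-379 and for 4 miRNAs of other imprinted loci. The sum from miR-379 onward is 91.3 and 223 CPM, and the sum from MEG3 to miR-379 is 19 and 21.1 CPM.

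Other imprinted genes, which are not among the 34, were compared in the same fit. Of 59 listed, 56 had a row and 21 were tested, of which 3 rose and 6 fell (42.9% called, against 44.1% of all genes), with a median log2 fold change of 0.01. CPA4, a carboxypeptidase gene next to MEST at 7q32, fell to 7.59 ± 1.59 CPM in HCT116oxR, against 61.0 ± 2.97 CPM in parental cells (SD, n = 3 each; -3.00 ± 0.10, SE, adjusted p = 9.84e-54). ZFAT (0.70 ± 0.10) and TRAPPC9 (0.78 ± 0.13), both on chromosome 8, rose, and HM13, a signal peptide peptidase gene, fell (-0.35 ± 0.07). CPA4 therefore differed where its neighbour MEST did not pass.

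Factors described as protecting or reading imprints were compared as context. Whether they act at the loci described here was not tested. Of 18 listed, 12 were tested, and 2 rose and 4 fell (50% called, against 44.1% of all genes), with a median log2 fold change of -0.03. DNMT1, which copies DNA methylation after replication, was at 420 ± 15.8 CPM in HCT116oxR and 528 ± 9.17 CPM in parental cells (SD, n = 3 each; -0.33 ± 0.03, SE, adjusted p = 1.02e-16). SMCHD1, a chromatin protein of silenced loci, fell by 0.25 ± 0.03 (log2) and HELLS, a remodeller needed for DNA methylation, by 0.16 ± 0.03. EHMT2, a histone H3 lysine methyltransferase, rose by 0.60 ± 0.08. TRIM28, the co-repressor bound by ZFP57, did not pass (-0.04 ± 0.03, adjusted p = 0.286), and ZFP57 itself had 0 counts in every library.

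Partners and relatives of the imprinted proteins held 39 tested genes, of which 14 rose and 17 fell, 79.5% against 44.1% of all genes (median log2 fold change -0.09). The list was chosen with earlier results of these data known, so its higher share is not evidence about these genes as a group. Most of the differences were small. By at least 2-fold, 3 rose and 0 fell, against 4.88% and 3.83% of all genes. DLK2, among the 3, passed the filter through HCT116oxR only. IRS1, the insulin receptor substrate of the pathway that GRB10 dampens, was at 290 ± 2.05 CPM in HCT116oxR and 84.6 ± 2.41 CPM in parental cells (SD, n = 3 each; 1.78 ± 0.04, SE, adjusted p = 1.52e-70). SGCB, which encodes another sarcoglycan, rose by 0.85 ± 0.08 and L3MBTL3, a relative of L3MBTL1, by 0.55 ± 0.06. CDKN1A, a relative of CDKN1C, fell by 0.38 ± 0.04.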

How the data were processed

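The deposited values were raw counts per gene (total RNA) and per mature miRNA (small RNA), 1 table each, and every value column was used. Per the submitters' processing notes, reads were aligned to GRCh38 with HISAT2 (total RNA) and BWA (small RNA). The counting tool and its use of strand were not given in the sources used, so overlapping genes are uncertain. Tests on these counts used edgeR 4.0.16 under R 4.3.3 (filterByExpr at 10 counts, TMM, robust quasi-likelihood F test, 2-sided, Benjamini-Hochberg over all features). DESeq2 1.42.0, other filters, RLE factors, a replicate block and omission of each library were alternatives. The fit was tested on simulated counts with the same low spread for both tables. The small RNA counts varied more between cultures (biological coefficient of variation 12.4%), so the simulation does not cover their noise. SE is the absolute log2 fold change over the root of F. Positions and sequences are from RefSeq GRCh38.p14. Libraries of a line differed by more than sampling noise. Every gene on the list is named; from each further list, the 4 smallest adjusted p-values. The genes, lists and tests were chosen with earlier results of these data known.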

Additional observations from a re-analysis of the deposited data

How the results depend on the processing

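The count of imprinted genes called was 5 to 7 higher and 1 lower with each library left out, and 6 higher and 1 lower under DESeq2, RLE factors, other filters and the replicate block. Deviations of same-numbered libraries of the lines had r of -0.0355 to 0.015 in total RNA and -0.168 to 0.168 in small RNA. Differently numbered libraries had r of -0.0408 to 0.0679 and -0.236 to 0.277. With 3 libraries per line, these values cannot decide whether the numbers are a pairing, and the main test used none. With the replicate block 33 of the 14q32 miRNAs were called lower. COPG2 (0.28 to 0.48) lost its call without HCT116oxR replicate 1 and without parental replicate 3, and KCNQ1 (0.28 to 0.54) gained one without HCT116oxR replicate 2 (0.54, adjusted p = 0.0178). Values near 0 that did not pass changed sign with single libraries left out, over -0.21 to 0.15 for MEST, -0.01 to 0.26 for INPP5F, -0.09 to 0.06 for IGF2R, -0.03 to 0.11 for BLCAP and -0.03 to 0.10 for miR-127-3p. Left-out libraries gave 27 to 32 lower 14q32 miRNAs, and 1 to 2 higher imprint factors (1 without HCT116oxR replicate 1). Medians of neighbours of at least 0.3 in size occurred for 0 genes within 2 Mb and within 5 Mb and for 4 within 1 Mb. The causes were not tested. Depth limits DIRAS3, MEST, NAP1L5 and all genes near 0.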

Other observations

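Of 22 tested protein-coding genes within 2 Mb of MEG3, 9 rose and 2 fell, against 22.3% and 21.8% of all genes, with a median log2 fold change of 0.07. Of the 7 within 1 Mb, 4 rose, 1 fell and 2 did not pass, with a median of 0.63. EML1, a microtubule-associated protein gene, had 261, 225 and 213 counts in HCT116oxR and 47, 34 and 28 in parental libraries (log2 fold change 2.61 ± 0.17, SE, adjusted p = 6.40e-28). SLC25A29, a mitochondrial carrier gene, rose by 0.63 ± 0.06, PPP2R5C, a phosphatase subunit gene, by 0.79 ± 0.24 and DEGS2, a sphingolipid desaturase gene, by 1.24 ± 0.48. WDR25 fell by 0.56 ± 0.19, while YY1 (0.04 ± 0.08) and BEGAIN (-0.07 ± 0.19) did not pass. These genes are not imprinted on the lists used, and they were named after their values were seen.

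DIO3, a thyroid hormone deiodinase gene at the far end of the imprinted 14q32 domain, had 12, 9 and 14 counts in HCT116oxR and 1, 6 and 7 in parental libraries, and did not pass the filter on low counts. DLK2, a relative of DLK1, had 27, 16 and 27 counts in HCT116oxR and 3, 4 and 8 in parental libraries, and passed the filter through HCT116oxR only.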
